A study of Homo sapiens with 16 samples.

Results

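Transcripts of 43 luminal and steroid hormone receptor genes were followed in T47D-MTVL cells, a breast cancer line with 1 integrated luciferase reporter under the MMTV promoter. The members were chosen by gene symbol: every bead-array probe annotated to one of the 43 symbols was taken, 66 probes of 24530 on the array, and 17553 gene symbols were on the array in all. Of the 43 genes, 39 were tested, each through its brightest detected probe. All 3 probes of NR3C1, the glucocorticoid receptor, and the single probes of ERBB4 and SGK1 were not detected on any array, and AREG had no probe. The 8 groups held 2 arrays each. The K26 group overexpressed HA-tagged H1.4 with the K26A substitution, and the WT group overexpressed HA-tagged wild-type H1.4. Both were grown without treatment. The sh225_Dox and sh225 groups carried an inducible hairpin against multiple H1 variants, grown with and without doxycycline (Dox, 2.5 µg/ml for 6 days). The sh120_Dox and sh120 groups carried a hairpin against H1.4, and the Ctrl_Dox and Ctrl groups a random hairpin, with and without Dox in the same way. All 3 hairpin lines also carried a KRAB repressor that Dox controls and a red fluorescent protein, and had been sorted for red and green fluorescence after a short Dox treatment. For the Dox arrays of these lines a passage at day 3 and a change to serum-free medium at day 4 are recorded. No such days are recorded for their untreated arrays, so the Dox comparisons may also differ in these steps. The sources used here do not say whether the WT and K26 lines had the serum-free step, and each overexpressed form was 1 line.

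Steroid receptors are transcription factors that hormones switch on. In luminal breast cells the oestrogen receptor, encoded by ESR1, binds DNA together with the pioneer factor FOXA1 and with GATA3, and switches on genes such as GREB1, TFF1 and the progesterone receptor gene PGR. FKBP4 and FKBP5 are co-chaperones that sit with steroid receptors on HSP90. Growth factor receptors of the ERBB, insulin-like growth factor and prolactin families signal beside the steroid receptors in the same cells. Linker histones such as H1.4 bind the DNA between nucleosomes.

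Markers of luminal epithelium were detected. The luminal keratin genes KRT8 and KRT19 were detected on all 16 arrays, KRT18 on 15 and EPCAM on 12, and FOXA1, GATA3 and ESR1 on all 16. Of markers of other cell types, all 5 endothelial genes, 7 of 8 fibroblast genes (all but COL1A1) and 5 of 9 basal genes (KRT5, KRT14, MYLK, LAMB3 and OXTR) were undetected on every array. The basal genes ACTA2 and CDH3 were detected on all 16 arrays, EGFR on 14 and VIM on 10. Of 5 leukocyte genes, CD68 was detected on all 16 arrays and CD14 on 4. The labels do not say that the 2 arrays of a group came from separate cultures, and the p-values therefore reflect only how much the arrays scatter, possibly for technical reasons. In bulk RNA, fewer cells of a kind and less RNA per cell cannot be told apart. The array descriptions count 1 to 8 once for the Ctrl, Ctrl_Dox, sh120 and sh120_Dox arrays and again for the sh225, sh225_Dox, WT and K26 arrays. Raw medians were 78 to 89.8 in the first of these runs of numbers and 97.7 to 105.4 in the other. The sources used here do not say what the numbering stands for. Each Dox effect, and K26 against WT, lies within 1 run. WT and K26 against Ctrl cross the runs, so the members are also given against the untreated sh225 line, which shares their run. Genes outside the members are given against Ctrl alone.

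The promoters of 4 members described below, 3 ETS factors and ANXA9, are printed first, since binding sites for the receptors and for FOXA1 are read on such sequence. They are the 250 bases before the start of the gene from RefSeq (GRCh38.p14), 5′ to 3′ on the gene's strand, with GGTCA, the core of the oestrogen response element, and the FOXA motif TGTTTAC (both strands) in capitals. ELF5 lies at chr11:34511725-34511974 on the minus strand, ANXA9 at chr1:150982042-150982291 on the plus strand, SPDEF at chr6:34556330-34556579 on the minus strand and ELF3 at chr1:202010337-202010586 on the plus strand.
ELF5: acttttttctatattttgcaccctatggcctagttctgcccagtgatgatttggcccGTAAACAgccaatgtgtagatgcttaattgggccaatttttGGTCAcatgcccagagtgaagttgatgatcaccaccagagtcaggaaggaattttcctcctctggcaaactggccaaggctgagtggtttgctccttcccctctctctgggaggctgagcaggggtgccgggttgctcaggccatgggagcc
ANXA9: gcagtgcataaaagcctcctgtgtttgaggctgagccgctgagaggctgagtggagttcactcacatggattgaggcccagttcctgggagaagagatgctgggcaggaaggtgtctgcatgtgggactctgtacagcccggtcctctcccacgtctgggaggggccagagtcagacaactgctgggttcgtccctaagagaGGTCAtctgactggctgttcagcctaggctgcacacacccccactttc
SPDEF: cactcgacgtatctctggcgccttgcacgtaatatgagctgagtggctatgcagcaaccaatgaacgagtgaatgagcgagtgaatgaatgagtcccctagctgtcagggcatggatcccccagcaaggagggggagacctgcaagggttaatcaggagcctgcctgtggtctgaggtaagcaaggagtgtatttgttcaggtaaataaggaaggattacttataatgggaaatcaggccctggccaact
ELF3: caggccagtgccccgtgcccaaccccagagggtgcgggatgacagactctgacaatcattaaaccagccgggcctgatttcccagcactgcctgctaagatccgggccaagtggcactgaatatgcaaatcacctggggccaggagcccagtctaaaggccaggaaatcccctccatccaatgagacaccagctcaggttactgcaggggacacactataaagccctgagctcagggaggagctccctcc
The ELF5 window held 1 GGTCA core and 1 FOXA motif, the ANXA9 window held 1 GGTCA core, and neither motif stood in the SPDEF and ELF3 windows. Promoter windows (250 bases before to 50 after the start) were found for 35 of the 43 members. GREB1, TFF1, TFF3, ERBB3, CCND1, TBX3, FKBP4 and CDH1 had none and were not searched. The full palindromic oestrogen response element was in 0 of the 35, against 0.0732% of 27305 genes, and the glucocorticoid and progestin response element in 0 of 35, against 0.48%. The core GGTCA, which is part of the full element, was in 16 of 35 members (45.7%), against 42.6% of genes. TGTTTAC was in 4 of 35 members, NR3C1, MYB, ELF5 and TSC22D3 (11.4%), against 4.19% of genes. The GATA motif AGATAA was in 3 members (8.57%), against 12.4%, and the interferon-stimulated response element in 1, SGK1, against 4.38%. A gene with several starts, such as NR3C1 or TSC22D3, had a window for each start and was counted if any of them matched. These shares are not adjusted for the number of windows per gene. A match is a run of letters and not a measured binding site.

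The median range of group means across the 8 groups was 1.07 on the log2 scale over the 39 members, beside 0.76 over all 9654 tested items (named genes and unnamed probes). A member was called higher or lower at a Benjamini-Hochberg adjusted p under 0.05 over all items in limma, each group having 2 arrays. Dox in the sh225 line gave 18 called members of 39 (4 higher, 14 lower), where 35.6% of all items were called (17.1% higher, 18.5% lower). Of these 39, in the sh120 line 11 were called with Dox (6 higher, 5 lower), where 16.5% of items were (8.07% higher, 8.43% lower). In the Ctrl line 3 were called (1 higher, 2 lower), where 2.98% of items were (1.45% higher, 1.53% lower). Between K26 and WT, 12 members were called (1 higher in K26, 11 lower), beside 22.9% of items (10.1% higher). In WT against Ctrl 23 were called (8 higher, 15 lower), beside 31.8% of items, and in K26 against Ctrl 27 (7 higher, 20 lower), beside 51.4%. The median member change was -0.23 in WT and -0.41 in K26 against Ctrl, where all items had medians of -0.01 and -0.03. The split into higher and lower depended on the scaling. With each array centred on its median instead, the members split into 8 higher and 10 lower in sh225 with Dox, and into 11 higher and 12 lower in WT against Ctrl. The Ctrl line then had 0 higher and 2 lower. All items split into 2318 higher and 1355 lower in sh225 with Dox (1650 and 1782 with quantile normalization), 824 and 528 in sh120 (779 and 814), 2562 and 925 in WT against Ctrl (1570 and 1499), and 2927 and 2001 in K26 against Ctrl (2335 and 2627). The untreated sh225 line differed from untreated Ctrl in 1 member at the adjusted threshold, PDZK1 (0.456% of items called, 0.331% higher, 32 higher and 12 lower, or 148 and 28 with median centring). With an unadjusted p under 0.05 in limma, sh225 differed in 18 of 39 members and in 1383 of 9654 items. This comparison crosses the runs of array numbers. The untreated sh120 line differed from untreated Ctrl in none at the adjusted threshold (0.0207% of items called by limma). At an unadjusted p under 0.05 it differed in 9 of 39 members and in 1084 of 9654 items.

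The smaller counts changed when 1 array was left out, which leaves 1 array in its group. Counts over all items fell as well in the sh120 line and in K26 against WT (ranges are given at the end). Leaving out either untreated sh120 array (replicate 1 or 2) cut the 11 calls of that line to 5. Leaving out a sh120_Dox array cut them to 7 (replicate 1) or 4 (replicate 2). The 3 calls in the Ctrl line became 0 without Ctrl replicate 1 or Ctrl_Dox replicate 2, and 1 without Ctrl replicate 2 or Ctrl_Dox replicate 1. For K26 against WT the 12 became 7 without K26 replicate 2, and 8 without K26 replicate 1 or WT replicate 2. The sh225 count stayed between 14 and 18 without any 1 of its 4 arrays.

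**Figure D1:**
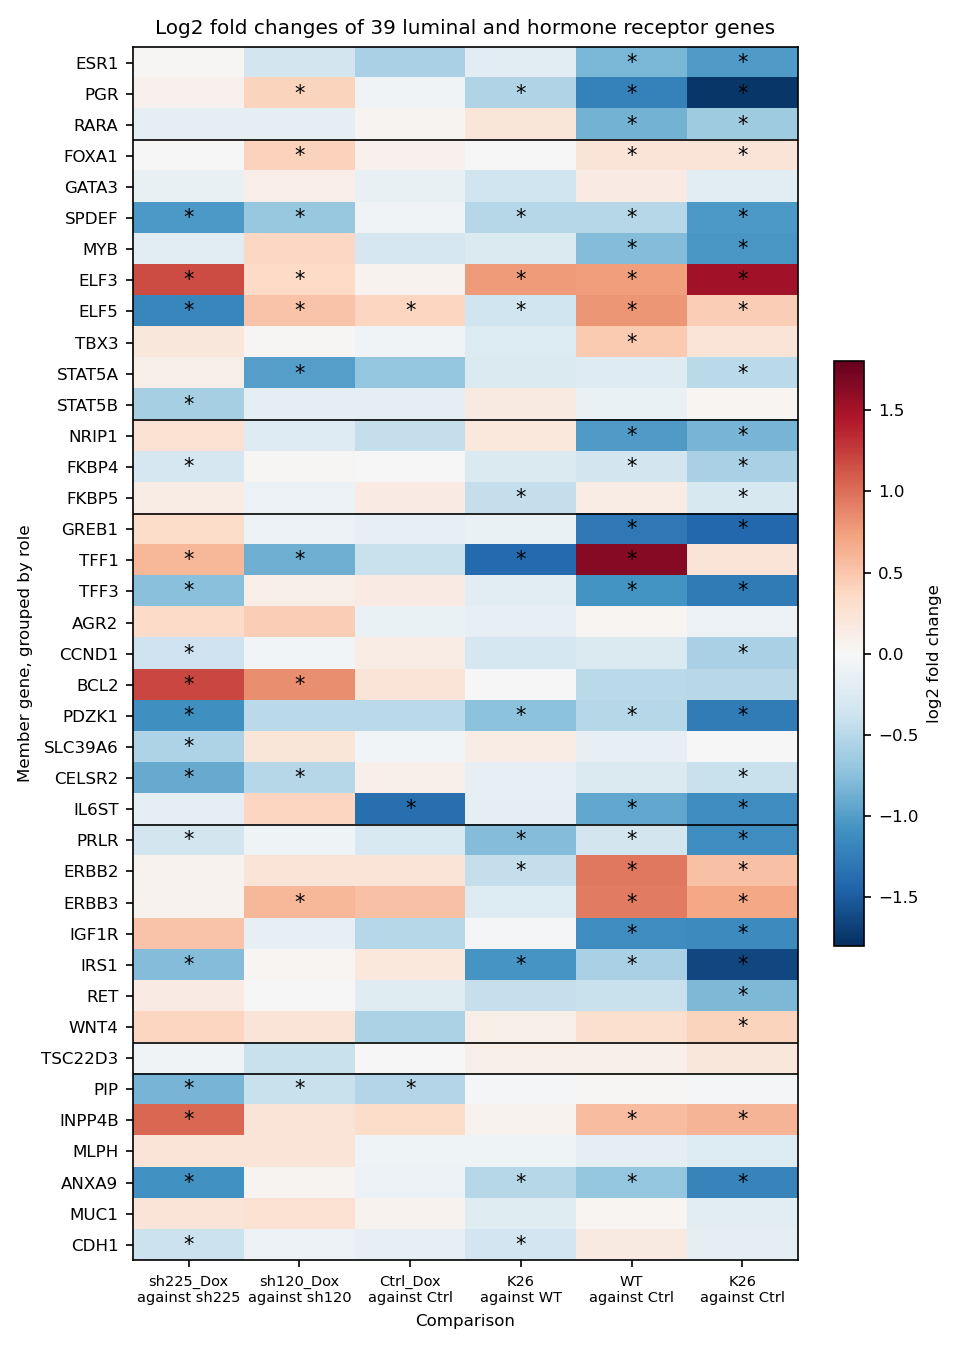
Log2 fold changes (colour, blue lower and red higher in the group named first) of the 39 tested members, in rows grouped by role, for 6 comparisons in columns. Asterisks mark adjusted p under 0.05 in limma: 18 members in the sh225 column, 11 in sh120, 3 in Ctrl, 12 in K26 against WT, 23 in WT against Ctrl and 27 in K26 against Ctrl, with ESR1, PGR and RARA marked in both of the last columns.

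The 3 tested members that encode steroid and retinoid receptors, ESR1, PGR and RARA, were lower in both H1.4 overexpression lines against Ctrl. The 7 tested nuclear receptors outside the members did not fall as a set. In WT against Ctrl 1 of these 7 was lower and none higher (median 0.08, 31.8% of all items called). In K26 against Ctrl 1 was higher and 2 lower (median 0.11, 51.4% of items called). With Dox none of the 3 was called in the sh225 or Ctrl line, and PGR alone in the sh120 line. ESR1 had log2 intensities of 9.44 and 9.52 in K26, 9.62 and 9.73 in WT and 10.70 and 10.30 in Ctrl. Both overexpression lines lay below all other groups, without overlap. The change was -1.02 ± 0.16 in K26 (log2 fold change ± SE, limma adjusted p = 3.11e-05, n = 2 per group) and -0.82 ± 0.16 in WT (adjusted p = 0.000658). With Dox, ESR1 had 10.45 and 10.11 in sh225_Dox against 10.35 and 10.16 in sh225, 9.88 and 10.04 in sh120_Dox against 10.50 and 10.09 in sh120, and 9.75 and 10.08 in Ctrl_Dox against 10.70 and 10.30 in Ctrl. The sh225 arrays overlapped, and none of these differences passed the test in limma (adjusted p = 0.909, 0.154 and 0.0522).

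PGR showed the largest fall of the receptors. Its log2 intensities were 8.06 and 8.11 in K26, 8.53 and 8.71 in WT and 9.94 and 9.73 in Ctrl, 3 groups without overlap. The fold change was -1.75 ± 0.13 in K26 against Ctrl (adjusted p = 2.29e-09) and -1.22 ± 0.13 in WT against Ctrl (adjusted p = 6.99e-07). K26 was also lower than WT, with a change of -0.54 ± 0.13 (log2, adjusted p = 0.00491 in limma), not called when leaving out WT replicate 2 (adjusted p = 0.0583). PGR with Dox in the sh120 line was higher, at 10.01 and 10.32 in sh120_Dox against 9.83 and 9.71 in sh120, without overlap. That rise of 0.40 ± 0.13 (adjusted p = 0.0363) was not called in 5 of the 14 alternatives tried (leaving out sh120 replicate 1, sh120 replicate 2 or sh120_Dox replicate 2, with no filter on detection, with no trend in the variance, adjusted p from 0.0525 to 0.313). In the sh225 line PGR had 9.82 and 9.76 with Dox against 9.75 and 9.68 without, and in the Ctrl line 9.68 and 9.86 with Dox against 9.94 and 9.73 without. Neither passed the test in limma (adjusted p = 0.663 and 0.844).

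RARA, a retinoic acid receptor that oestrogen induces in breast cancer cells, had 11.39 and 11.42 in K26, 11.17 and 11.20 in WT and 11.995 and 12.09 in Ctrl. The overexpression lines did not overlap with Ctrl. The changes were -0.64 ± 0.12 in K26 (adjusted p = 0.000204) and -0.85 ± 0.12 in WT (adjusted p = 2.7e-05 in limma).

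**Figure D2:**
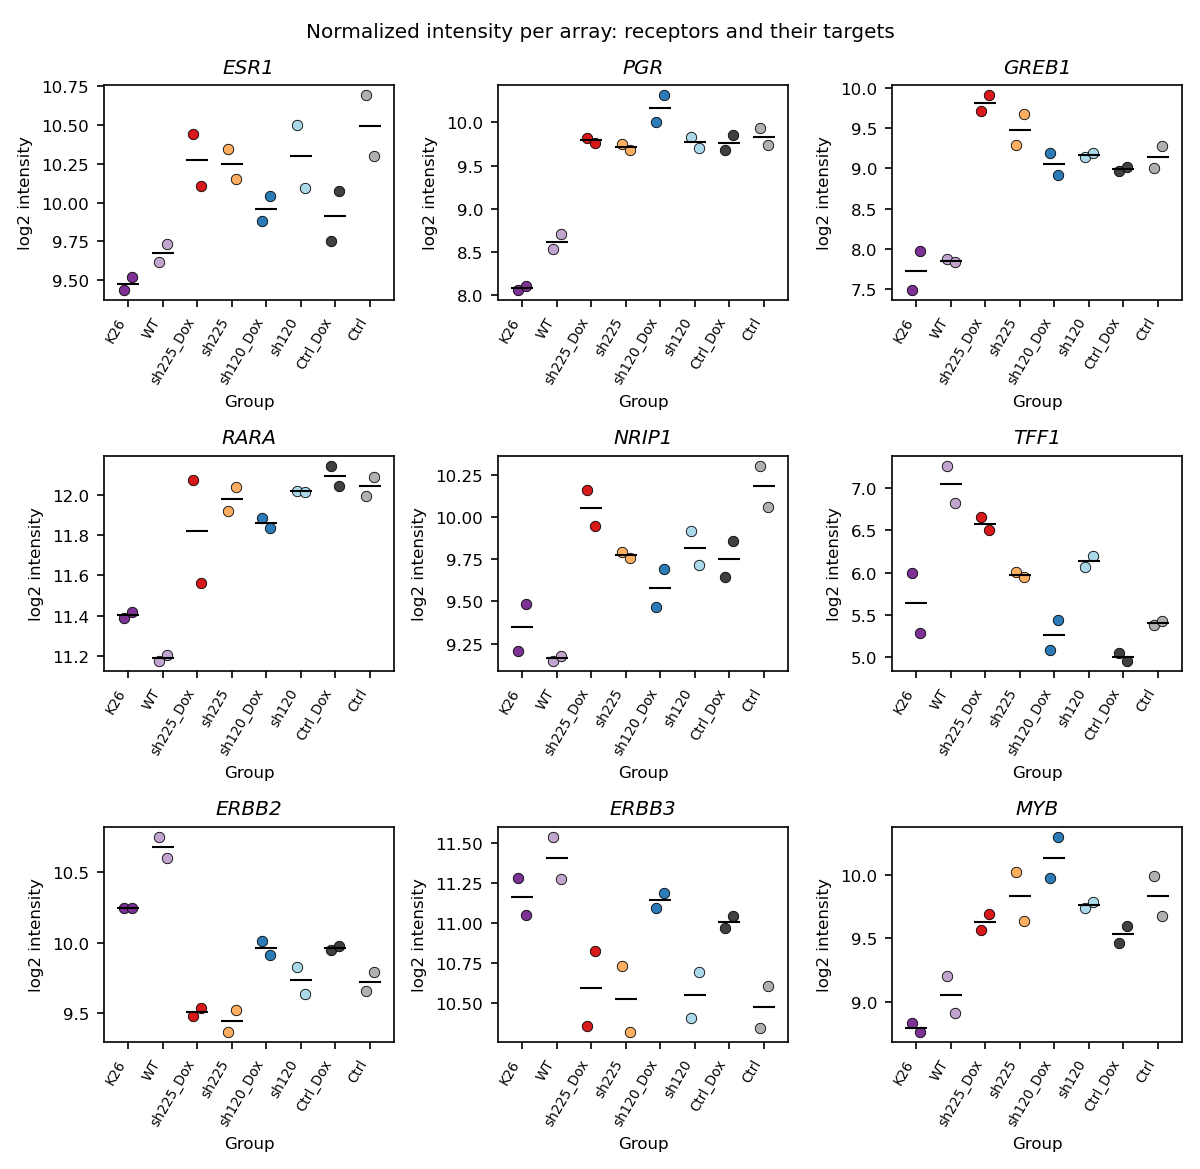
Normalized log2 intensity of 9 receptor and target genes on each array (points, 2 per group) with group means (bars), in 8 groups on the horizontal axis. ESR1, PGR, GREB1, RARA, NRIP1 and MYB lie lower in K26 and WT than in Ctrl, ERBB2 and ERBB3 lie higher, and TFF1 is highest in WT.

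Of the 9 luminal transcription factors, ELF5, ELF3 and SPDEF belong to the ETS family. In the sh225 line with Dox 1 of the 9 rose (ELF3) and 3 fell (SPDEF, ELF5 and STAT5B), beside 17.1% of all items higher and 18.5% lower. ELF5, a factor of the milk-producing alveolar lineage, had 9.49 and 9.61 in sh225_Dox against 10.83 and 10.62 in sh225. It fell there by 1.17 ± 0.10 on the log2 scale (adjusted p = 2.32e-08, limma), and its sh225_Dox arrays were the lowest of all 16. In the sh120 line ELF5 went the other way, with 11.37 and 11.42 in sh120_Dox against 10.87 and 10.90 in sh120, a rise of 0.52 ± 0.10 (adjusted p = 0.00181) without overlap. The Ctrl line gave 11.34 and 11.37 in Ctrl_Dox against 11.01 and 10.93 in Ctrl, a rise of 0.38 ± 0.10 (adjusted p = 0.035), not called in 8 of the 14 alternatives tried (leaving out any 1 of the 4 arrays, with median centring, with no filter on detection, with only the arrays compared, with no trend in the variance, adjusted p from 0.0525 to 0.194). In the overexpression lines ELF5 was higher than in Ctrl, at 11.43 and 11.40 in K26 and 11.72 and 11.82 in WT, by 0.44 ± 0.10 (adjusted p = 0.000865) and 0.80 ± 0.10 (adjusted p = 5.51e-06). K26 was lower than WT, with a change of -0.36 (adjusted p = 0.013), not called when leaving out WT replicate 2 (adjusted p = 0.103) and when leaving out K26 replicate 2 (adjusted p = 0.088). A second ELF5 probe gave -0.87 ± 0.17 with Dox in the sh225 line (adjusted p = 0.00052) and 0.65 ± 0.17 in the Ctrl line (adjusted p = 0.0437), with 0.41 ± 0.17 in the sh120 line not passing the test (adjusted p = 0.112). In the overexpression lines that probe gave 0.39 ± 0.17 in K26, which did not pass (adjusted p = 0.0626), and 1.06 ± 0.17 in WT (adjusted p = 0.000111).

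ELF3, an epithelial ETS factor, rose with Dox in the sh225 line. It had 10.50 and 10.42 in sh225_Dox against 9.29 and 9.28 in sh225, a rise of 1.17 ± 0.11 (adjusted p = 1.39e-07 in limma). The values were close within each group and far apart between them. The sh120 line gave 9.76 and 9.73 with Dox against 9.43 and 9.35 without, a rise of 0.36 ± 0.11 (adjusted p = 0.0346), not called in 5 of the 14 alternatives tried (leaving out any 1 of the 4 arrays and with no trend in the variance, adjusted p from 0.0537 to 0.171). In the Ctrl line the change of 0.06 ± 0.11 did not pass the test (adjusted p = 0.848). ELF3 was also higher in the overexpression lines, with 10.73 and 10.77 in K26 and 9.98 and 9.99 in WT against 9.08 and 9.39 in Ctrl, and no overlap among the 3. The rises were 1.52 ± 0.11 in K26 (adjusted p = 3.43e-09) and 0.75 ± 0.11 in WT (adjusted p = 5.29e-05), and K26 exceeded WT by 0.77 ± 0.11 (adjusted p = 0.000105).

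SPDEF, an ETS factor of secretory and luminal epithelium, fell with Dox in both H1 hairpin lines and was lower in both overexpression lines. With Dox it had 9.99 and 9.33 in sh225_Dox against 10.70 and 10.71 in sh225, a change of -1.04 ± 0.17 (adjusted p = 9.3e-05 in limma). The sh120 line had 10.15 and 10.48 with Dox against 11.01 and 10.98 without. That change of -0.68 ± 0.17 (adjusted p = 0.011) was not called in 3 of the 14 alternatives tried (leaving out sh120 replicate 1, sh120 replicate 2 or sh120_Dox replicate 1, adjusted p from 0.0588 to 0.126). The groups did not overlap in either line, and the 2 sh225_Dox arrays lay far apart. The Ctrl line gave -0.07 ± 0.17 (adjusted p = 0.888). SPDEF had 9.97 and 10.23 in K26 and 10.42 and 10.81 in WT, against 11.18 and 11.08 in Ctrl. K26 was lower than Ctrl, with a change of -1.03 ± 0.17 (adjusted p = 5.66e-05). The change in WT against Ctrl, -0.52 ± 0.17 (adjusted p = 0.0264), was not called in 6 of the 15 alternatives tried (leaving out Ctrl replicate 1, Ctrl replicate 2 or WT replicate 1, with median centring, with no trend in the variance, with sh225 in place of Ctrl, adjusted p from 0.0547 to 0.737). K26 against WT gave -0.52 ± 0.17 (adjusted p = 0.0355), not called in 5 of the 14 alternatives tried (leaving out WT replicate 2, K26 replicate 1 or K26 replicate 2, with no filter on detection, with no trend in the variance, adjusted p from 0.0538 to 0.305).

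FOXA1 and GATA3, the factors that work with the oestrogen receptor, showed small differences. FOXA1 had 12.62 and 12.62 in sh225_Dox against 12.66 and 12.57 in sh225 (adjusted p = 0.95 in limma). It rose by 0.42 ± 0.09 with Dox in the sh120 line, where it had 12.92 and 13.09 in sh120_Dox against 12.55 and 12.61 in sh120 (adjusted p = 0.00334), not called when leaving out sh120_Dox replicate 2 (adjusted p = 0.0521). The Ctrl line gave 12.73 and 12.81 in Ctrl_Dox against 12.73 and 12.65 in Ctrl (adjusted p = 0.726). FOXA1 was slightly higher in K26, at 12.85 and 12.99, by 0.23 ± 0.09 over Ctrl (adjusted p = 0.0342), not called in 6 of the 15 alternatives tried (leaving out Ctrl replicate 1, Ctrl replicate 2 or K26 replicate 2, with no filter on detection, with only the arrays compared, with no trend in the variance, adjusted p from 0.051 to 0.264). In WT it had 12.94 and 12.91, a rise of 0.23 ± 0.09 (adjusted p = 0.0482) that was not called in 9 of the 15 alternatives tried (leaving out any 1 of the 4 arrays, with the series matrix, with no filter on detection, with every probe tested, with only the arrays compared, with no trend in the variance, adjusted p from 0.0511 to 0.199). GATA3 was called in none of these comparisons. It had 10.63 and 10.39 in K26, 10.97 and 10.77 in WT, 10.51 and 10.89 in sh225_Dox against 10.72 and 10.93 in sh225, 10.94 and 10.84 in sh120_Dox against 10.66 and 10.89 in sh120, and 10.56 and 10.60 in Ctrl_Dox against 10.63 and 10.80 in Ctrl. Its groups overlapped with Dox in the sh225 and sh120 lines.

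MYB, which oestrogen keeps active in luminal cells, had 8.83 and 8.76 in K26 and 9.20 and 8.91 in WT against 9.99 and 9.68 in Ctrl, with no overlap with Ctrl, and fell in both, with changes of -1.04 ± 0.15 (adjusted p = 1.22e-05) and -0.78 ± 0.15 (adjusted p = 0.000604, limma). STAT5A and STAT5B carry the prolactin signal to DNA. STAT5B had 6.76 and 6.80 in sh225_Dox against 7.39 and 7.38 in sh225 and fell there by 0.60 ± 0.17 (adjusted p = 0.00938), without overlap. STAT5A had 5.84 and 5.59 in sh120_Dox, where it was undetected, against 6.87 and 6.56 in sh120. It was at least 1.62-fold lower there (adjusted p = 0.00225, limma). In K26 STAT5A was lower than in Ctrl, with a change of -0.49 (adjusted p = 0.0418), not called in 6 of the 14 alternatives tried (leaving out any 1 of the 4 arrays, with the series matrix, with no filter on detection, adjusted p from 0.0516 to 0.197). TBX3, a T-box repressor, was higher in WT than in Ctrl by 0.48 ± 0.16 (adjusted p = 0.0273), not called in 5 of the 14 alternatives tried (leaving out any 1 of the 4 arrays and with no filter on detection, adjusted p from 0.0682 to 0.148).

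**Figure D3:**
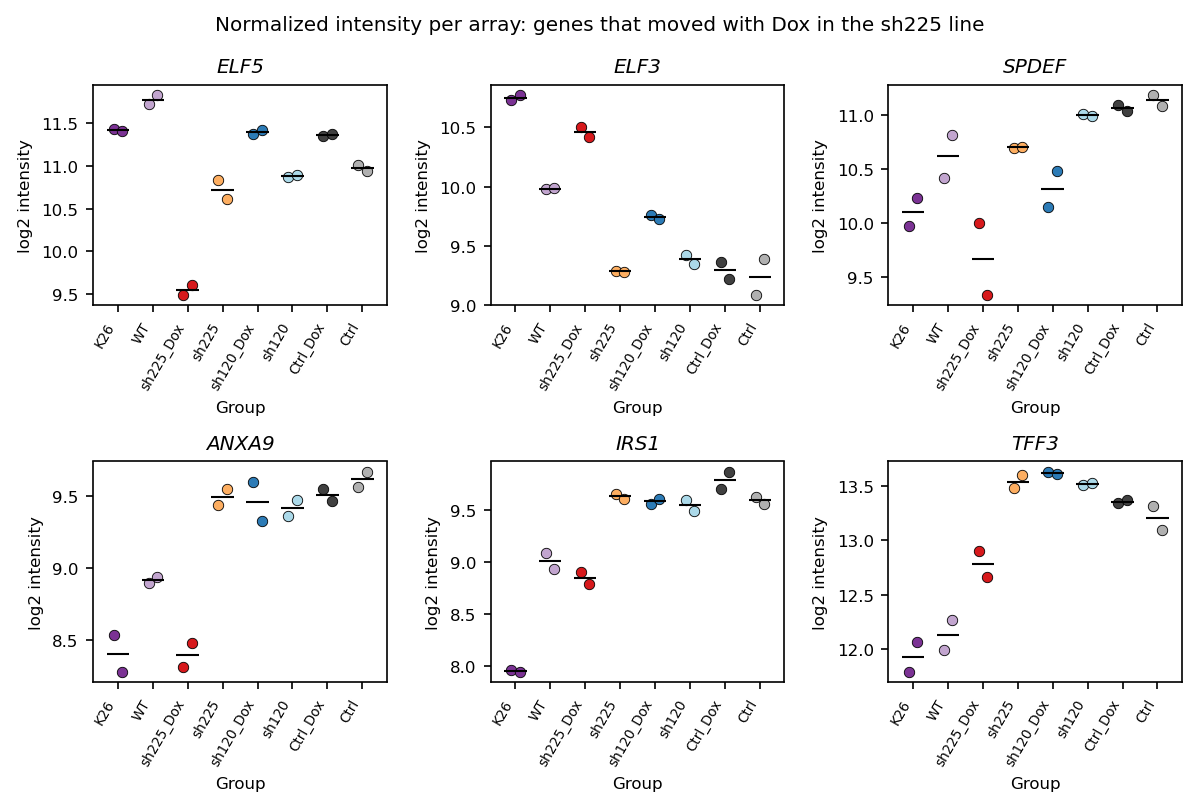
Normalized log2 intensity of ELF5, ELF3, SPDEF, ANXA9, IRS1 and TFF3 on each array (points, 2 per group) with group means (bars), in 8 groups on the horizontal axis. ELF5 in sh225_Dox lies at 9.49 and 9.61, below every other group, while its sh120_Dox and Ctrl_Dox arrays lie above their untreated lines. IRS1, ANXA9 and TFF3 are lower in sh225_Dox, WT and K26 than in the other groups.

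Of the 3 receptor cofactors, NRIP1 and FKBP4 were lower in the overexpression lines. NRIP1, a corepressor of nuclear receptors, had 9.21 and 9.49 in K26 and 9.15 and 9.18 in WT against 10.30 and 10.06 in Ctrl, with no overlap with Ctrl. It fell in both, with changes of -0.83 ± 0.13 in K26 (adjusted p = 3.9e-05) and -1.02 ± 0.13 in WT (adjusted p = 1.18e-05, limma). FKBP4 fell by 0.59 ± 0.10 in K26 (adjusted p = 7.15e-05). In WT it was lower, with a change of -0.33 (adjusted p = 0.0156), not called in 5 of the 15 alternatives tried (leaving out Ctrl replicate 2, WT replicate 1 or WT replicate 2, with median centring, with only the arrays compared, adjusted p from 0.0526 to 0.625). In sh225 cells with Dox it was lower, with a change of -0.31 (adjusted p = 0.02), not called in 5 of the 14 alternatives tried (leaving out sh225 replicate 1, sh225 replicate 2 or sh225_Dox replicate 2, with median centring, with only the arrays compared, adjusted p from 0.0754 to 0.311). FKBP5 was lower in K26 than in WT, with a change of -0.43 (adjusted p = 0.0154), not called in 3 of the 14 alternatives tried (leaving out WT replicate 1, K26 replicate 1 or K26 replicate 2, adjusted p from 0.0715 to 0.186), and lower than in Ctrl, with a change of -0.29 (adjusted p = 0.0464), not called in 8 of the 15 alternatives tried (leaving out any 1 of the 4 arrays, with median centring, with no filter on detection, with only the arrays compared, with sh225 in place of Ctrl, adjusted p from 0.064 to 0.288).

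The 10 oestrogen response genes did not move as 1 group. In sh225 with Dox 2 rose and 5 fell, where 35.6% of all items were called. In WT against Ctrl 1 rose and 4 fell, beside 31.8% of items, and in K26 against Ctrl 0 rose and 6 fell, beside 51.4%. GREB1, an early oestrogen target and cofactor of the receptor, fell in both overexpression lines. It had 7.48 and 7.97 in K26 and 7.87 and 7.83 in WT against 9.003 and 9.28 in Ctrl, far apart, with changes of -1.41 ± 0.16 (adjusted p = 8.57e-07) and -1.29 ± 0.16 (adjusted p = 7.69e-06, limma). The other 2 detected GREB1 probes fell too, with changes of -0.89 ± 0.25 and -1.67 ± 0.21 in K26 and -0.98 ± 0.25 and -1.48 ± 0.21 in WT. GREB1 was not called with Dox in any line.

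The trefoil peptides TFF1 and TFF3, secreted proteins of mucosal surfaces, went apart. TFF3, one of the brightest members, had 11.79 and 12.07 in K26 and 11.997 and 12.27 in WT against 13.32 and 13.09 in Ctrl. It fell without overlap with Ctrl, with changes of -1.28 ± 0.11 (adjusted p = 3.26e-08) and -1.07 ± 0.11 (adjusted p = 8.59e-07, limma). In the sh225 line TFF3 had 12.90 and 12.66 in sh225_Dox against 13.48 and 13.59 in sh225 and fell by 0.75 ± 0.11 (adjusted p = 3.22e-05). TFF1 was dim, undetected in Ctrl. It had 6.00 and 5.29 in K26, 7.26 and 6.82 in WT and 5.39 and 5.43 in Ctrl. WT was at least 2.20-fold higher than Ctrl (adjusted p = 1.34e-05), and K26, detected on 1 of 2 arrays, was lower than WT, with a change of -1.40 (log2, SE 0.22, adjusted p = 0.000184), without overlap. With Dox TFF1 rose in the sh225 line and fell in the sh120 line. It had 6.66 and 6.5 in sh225_Dox against 6.01 and 5.95 in sh225, a rise of 0.60 ± 0.22 (adjusted p = 0.0355), not called in 5 of the 13 alternatives tried (leaving out any 1 of the 4 arrays and with no filter on detection, adjusted p from 0.071 to 0.141). The sh120 line had 5.09 and 5.44 in sh120_Dox, where it was undetected, against 6.07 and 6.20 in sh120. It was at least 1.09-fold lower there (adjusted p = 0.0104), not called when leaving out sh120 replicate 2 (adjusted p = 0.0768) and when leaving out sh120_Dox replicate 1 (adjusted p = 0.103).

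PDZK1, a scaffold protein, fell with Dox in the sh225 line, whose untreated arrays held its highest values of the 16. It had 6.10 and 6.07 in sh225_Dox against 7.03 and 7.35 in sh225, a change of -1.11 ± 0.19 (adjusted p = 0.000118 in limma). The untreated sh225 arrays stood above those of untreated Ctrl, 5.91 and 6.32, by 1.08 ± 0.19 (adjusted p = 0.0105), not called in 3 of the 13 alternatives tried (leaving out Ctrl replicate 1 or sh225 replicate 2 and with no filter on detection, adjusted p from 0.0527 to 0.238). PDZK1 was undetected in K26, 4.79 and 4.93, and in WT, 5.78 and 5.43, and detected on 1 of 2 Ctrl arrays. K26 was at least 1.16-fold lower than Ctrl (adjusted p = 1.64e-05). WT was at least 1.13-fold lower (adjusted p = 0.0401), not called in 7 of the 14 alternatives tried (leaving out Ctrl replicate 2 or WT replicate 2, with no background correction, with an offset of 50, with the series matrix, with no filter on detection, with only the arrays compared, adjusted p from 0.0513 to 0.311). K26 against WT was called (adjusted p = 0.0073), not called when leaving out WT replicate 1 (adjusted p = 0.107) and when leaving out K26 replicate 1 (adjusted p = 0.0543), but neither group was above background, so no fold is given.

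BCL2, an inhibitor of apoptosis, was called higher with Dox in both H1 hairpin lines. In the Ctrl line it was undetected, at 5.07 and 5.48 with Dox against 5.15 and 4.92 without. Its Dox effect differed from that of the Ctrl line in sh225 (0.97) but was not called different in sh120. The probe was detected on 3 arrays, 2 of sh225_Dox and 1 of sh120_Dox, and the other BCL2 probes on none. Thus BCL2 passed the detection filter only through the groups where it was called higher. It had 6.69 and 6.83 in sh225_Dox against 5.71 and 5.39 in sh225, where it was undetected, and was at least 1.87-fold higher (adjusted p = 0.000412 in limma). The sh120 line had 5.96 and 6.73 in sh120_Dox, detected on 1 array, against 5.43 and 5.58 in sh120. It was at least 1.31-fold higher there (adjusted p = 0.0177), not called in 3 of the 13 alternatives tried (leaving out sh120 replicate 1, sh120 replicate 2 or sh120_Dox replicate 2, adjusted p from 0.0601 to 0.241). CELSR2, an adhesion cadherin, had 7.11 and 7.00 in sh225_Dox against 7.82 and 8.10 in sh225 and fell by 0.91 ± 0.15 (adjusted p = 7.85e-05), without overlap. The sh120 line had 7.61 and 7.43 with Dox against 8.03 and 8.05 without. That change of -0.52 ± 0.15 (adjusted p = 0.0211) was not called in 4 of the 14 alternatives tried (leaving out sh120 replicate 1, sh120 replicate 2 or sh120_Dox replicate 2 and with median centring, adjusted p from 0.0529 to 0.137). SLC39A6, a zinc transporter, had 6.53 and 6.54 in sh225_Dox against 7.20 and 6.99 in sh225. The change of -0.56 ± 0.18 (adjusted p = 0.0186) was not called in 4 of the 14 alternatives tried (leaving out sh225 replicate 1, sh225_Dox replicate 1 or sh225_Dox replicate 2 and with no filter on detection, adjusted p from 0.0575 to 0.137).

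IL6ST, the shared receptor subunit gp130, had 5.68 and 5.21 in Ctrl_Dox, where it was undetected, against 6.82 and 6.78 in Ctrl, and was at least 1.70-fold lower (adjusted p = 0.0171 in limma), not called in 3 of the 13 alternatives tried (leaving out Ctrl replicate 1, Ctrl replicate 2 or Ctrl_Dox replicate 2, adjusted p from 0.0638 to 0.194). It was also undetected in K26, 5.75 and 5.63, and in WT, 5.86 and 5.88. There it was at least 1.86-fold lower than Ctrl in K26 (adjusted p = 0.00556), not called with sh225 in place of Ctrl (adjusted p = 0.613). In WT it was at least 1.81-fold lower (adjusted p = 0.028), not called in 6 of the 14 alternatives tried (leaving out any 1 of the 4 arrays, with no filter on detection, with sh225 in place of Ctrl, adjusted p from 0.064 to 0.975). IL6ST was undetected in untreated sh120 as well, at 5.64 and 4.90. These are values of the brightest IL6ST probe, detected on 3 of 16 arrays, 2 of Ctrl and 1 of sh225. That probe passed the detection filter only with the Ctrl arrays, which are the reference in all of these calls. The other, detected on 5 of 16 arrays, passed none of the 3 tests, with -0.47 ± 0.19 in Ctrl_Dox against Ctrl (adjusted p = 0.216 over all probes), -0.43 ± 0.19 in K26 (adjusted p = 0.0582) and -0.33 ± 0.19 in WT (adjusted p = 0.189). CCND1, the cyclin that oestrogen induces, fell by 0.59 ± 0.12 in K26 against Ctrl (adjusted p = 0.000435). In sh225 cells with Dox it was lower, with a change of -0.37 (adjusted p = 0.0195), not called in 5 of the 14 alternatives tried (leaving out sh225 replicate 1, sh225 replicate 2 or sh225_Dox replicate 1, with median centring, with only the arrays compared, adjusted p from 0.0607 to 0.194). AGR2, a protein disulphide isomerase, was not called, with group means between 7.97 and 8.49.

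Among growth factor receptors and their partners, the adaptor IRS1 fell in 3 settings. It had 8.90 and 8.79 in sh225_Dox against 9.65 and 9.61 in sh225, a change of -0.79 ± 0.11 (adjusted p = 1.81e-05, limma). It had 7.96 and 7.94 in K26, 9.08 and 8.94 in WT and 9.63 and 9.56 in Ctrl, 3 groups without overlap. K26 was lower than WT, with a change of -1.06 ± 0.11 (adjusted p = 3.8e-06) and lower than Ctrl, with a change of -1.64 ± 0.11 (adjusted p = 1.12e-09). WT was lower than Ctrl, with a change of -0.58 ± 0.11 (adjusted p = 0.000569). In the sh120 and Ctrl lines IRS1 was not called with Dox (adjusted p = 0.848 and 0.418). PRLR, the prolactin receptor, had 8.26 and 8.17 in K26 against 8.996 and 9.01 in WT, and 9.44 and 9.22 in Ctrl. It was lower in K26 than in WT, with a change of -0.79 ± 0.12 (adjusted p = 0.000218) and than in Ctrl, with a change of -1.12 ± 0.12 (adjusted p = 5.65e-07), without overlap. WT against Ctrl gave -0.33 ± 0.12 (adjusted p = 0.047), not called in 8 of the 15 alternatives tried (leaving out Ctrl replicate 1, WT replicate 1 or WT replicate 2, with median centring, with no filter on detection, with only the arrays compared, with no trend in the variance, with sh225 in place of Ctrl, adjusted p from 0.0555 to 0.654). PRLR gave, with Dox in the sh225 line, -0.33 ± 0.12 (adjusted p = 0.0417), not called in 7 of the 14 alternatives tried (leaving out any 1 of the 4 arrays, with median centring, with no filter on detection, with only the arrays compared, adjusted p from 0.0572 to 0.207).

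ERBB2 and ERBB3 are partners in a growth factor receptor dimer, and the brightest probe of each was higher in the overexpression lines. ERBB2 had 10.25 and 10.25 in K26 and 10.75 and 10.60 in WT against 9.66 and 9.79 in Ctrl, and the 3 groups did not overlap. It rose by 0.52 ± 0.11 in K26 (adjusted p = 0.000552) and 0.95 ± 0.11 in WT (adjusted p = 2.64e-06, limma). K26 was lower than WT, with a change of -0.43 (adjusted p = 0.00814), not called when leaving out WT replicate 1 (adjusted p = 0.0951) and when leaving out K26 replicate 2 (adjusted p = 0.0562). ERBB3 had 11.28 and 11.05 in K26 and 11.54 and 11.28 in WT against 10.34 and 10.60 in Ctrl. Both lines lay above Ctrl, by 0.69 ± 0.16 (adjusted p = 0.0013) and 0.94 ± 0.16 (adjusted p = 0.000209). ERBB3 with Dox in the sh120 line had 11.10 and 11.19 in sh120_Dox against 10.40 and 10.69 in sh120. That rise of 0.59 ± 0.16 (adjusted p = 0.0166) was not called in 3 of the 14 alternatives tried (leaving out sh120 replicate 1, sh120_Dox replicate 1 or sh120_Dox replicate 2, adjusted p from 0.0585 to 0.169). The ERBB3 probes disagreed there: a second one fell by 0.50 ± 0.13 (adjusted p = 0.0173 over all probes) and the last one gave -0.16 ± 0.20 (adjusted p = 0.638). The second gave 0.17 ± 0.13 in K26 (adjusted p = 0.288) and 0.03 ± 0.13 in WT (adjusted p = 0.885) against Ctrl, neither past the test. The last one gave 0.59 ± 0.20 in K26 (adjusted p = 0.0199) and 0.40 ± 0.20 in WT (adjusted p = 0.148). These probes, with Dox in the sh225 line, gave -0.89 ± 0.13 and -0.58 ± 0.20 (adjusted p = 3.45e-05 and 0.0334), where the brightest probe gave 0.07 ± 0.16 (adjusted p = 0.778). The direction for ERBB3 is therefore that of the brightest probe and is uncertain for the gene.

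IGF1R, the insulin-like growth factor receptor, was near background. It was detected on 2 of 16 arrays, 1 of Ctrl and 1 of sh225_Dox. Thus it passed the detection filter only through groups where it was high. It had 4.78 and 4.85 in K26 and 4.80 and 4.88 in WT, undetected in both, against 6.15 and 5.78 in Ctrl, detected on 1 array. It was at least 1.04-fold lower in K26 (adjusted p = 0.000341) and at least 1.01-fold lower in WT (adjusted p = 0.000998, limma). RET, a receptor tyrosine kinase, had 6.10 and 5.99 in K26 against 6.65 and 7.06 in Ctrl and fell by 0.81 ± 0.17 (adjusted p = 0.00058), without overlap. In WT the same probe gave -0.40 ± 0.17 and did not pass (adjusted p = 0.0848). A second RET probe, detected on 6 of 16 arrays, was lower in K26 (adjusted p = 0.000407 over all probes) and WT (adjusted p = 0.00155) against Ctrl. With Dox that probe was lower in the sh225 (adjusted p = 0.00499) and sh120 lines (adjusted p = 0.00581), where the brightest gave 0.15 ± 0.17 (adjusted p = 0.519) and -0.002 ± 0.17 (adjusted p = 0.994), so the RET probes disagreed. WNT4, a ligand that progesterone induces in the breast, was higher in K26 than in Ctrl by 0.40 ± 0.16 (adjusted p = 0.0477), not called in 6 of the 15 alternatives tried (leaving out Ctrl replicate 1 or K26 replicate 1, with no filter on detection, with only the arrays compared, with the replicate block, with sh225 in place of Ctrl, adjusted p from 0.0528 to 0.275).

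Among the 6 other luminal genes ANXA9, an annexin, fell with Dox in the sh225 line and in both overexpression lines. It had 8.32 and 8.49 in sh225_Dox against 9.43 and 9.55 in sh225, a change of -1.09 ± 0.13 (adjusted p = 1.59e-06, limma). It had 8.54 and 8.28 in K26 and 8.90 and 8.94 in WT against 9.56 and 9.67 in Ctrl, with no overlap among the 3. The changes against Ctrl were -1.21 ± 0.13 (adjusted p = 2.73e-07) and -0.70 ± 0.13 (adjusted p = 0.000351). K26 against WT gave -0.51 ± 0.13 (adjusted p = 0.0067), not called when leaving out K26 replicate 2 (adjusted p = 0.111). PIP, a secreted protein that prolactin and androgen induce, was the brightest member in Ctrl and was lower with Dox in every line. It had 13.25 and 13.29 in sh225_Dox against 13.85 and 14.35 in sh225, a change of -0.83 ± 0.13 (adjusted p = 4.43e-05). The sh120 line had 13.78 and 13.46 with Dox against 14.00 and 14.03 without. That change of -0.40 ± 0.13 (adjusted p = 0.0369) was not called in 5 of the 14 alternatives tried (leaving out sh120 replicate 1, sh120 replicate 2 or sh120_Dox replicate 2, with no filter on detection, with no trend in the variance, adjusted p from 0.101 to 0.311). In the Ctrl line it had 13.82 and 13.90 with Dox against 14.27 and 14.48 without. That change of -0.52 ± 0.13 (adjusted p = 0.0255) was not called in 6 of the 14 alternatives tried (leaving out any 1 of the 4 arrays, with no filter on detection, with no trend in the variance, adjusted p from 0.053 to 0.174).

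INPP4B, a lipid phosphatase of the PI3-kinase pathway, rose. It had 7.94 and 7.70 in sh225_Dox against 6.94 and 6.65 in sh225, a rise of 1.03 ± 0.16 (adjusted p = 4.76e-05, limma), without overlap. It had 7.40 and 7.42 in K26 and 7.23 and 7.47 in WT against 6.80 and 6.79 in Ctrl. K26 was higher than Ctrl by 0.61 ± 0.16 (adjusted p = 0.0031), and WT by 0.55 ± 0.16 (adjusted p = 0.0117), not called when leaving out Ctrl replicate 1 (adjusted p = 0.0513) and when leaving out WT replicate 2 (adjusted p = 0.118). CDH1, which encodes E-cadherin, fell by 0.38 ± 0.09 with Dox in the sh225 line (adjusted p = 0.00394), not called with median centring (adjusted p = 0.115). In K26 against WT it was lower, with a change of -0.34 (adjusted p = 0.0143), not called when leaving out WT replicate 2 (adjusted p = 0.138) and when leaving out K26 replicate 1 (adjusted p = 0.0986). MLPH, which carries pigment granules, and MUC1, a membrane mucin, were not called with Dox, between K26 and WT, or against Ctrl. Against untreated sh225, MLPH was lower in K26 (-0.30, adjusted p = 0.0322) and MUC1 higher in WT (0.35, adjusted p = 0.0103). The brightest probe of TSC22D3, a glucocorticoid response gene, was called in none of the comparisons. A second probe was higher than in Ctrl by 0.43 ± 0.16 in K26 (adjusted p = 0.0309 over all probes) and 0.53 ± 0.16 in WT (adjusted p = 0.0163), where the brightest gave 0.20 ± 0.21 and 0.10 ± 0.21. Values of the brightest probe differed between the scanner table and the authors' series matrix by a median of 1.38 on the log2 scale, so its level is uncertain.

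Whether the Dox effect of the sh225 line differed from that of the Ctrl line was tested directly. Of the 39 members 14 differed (7 higher, 7 lower), where 16.3% of all items did (643 higher and 928 lower, or 822 and 737 with median centring). ELF5 differed most, with a change of -1.56 ± 0.14 (adjusted p = 1.64e-07, limma), since it fell with Dox in sh225 and rose in Ctrl. ELF3 differed by 1.12 ± 0.16 (adjusted p = 4.6e-05). IRS1, TFF3, ANXA9, CELSR2 and SPDEF differed by -0.98, -0.90, -0.98, -0.99 and -0.97. PIP and PDZK1, which fell with Dox in sh225, did not pass this test (adjusted p = 0.274 and 0.122). NRIP1, WNT4 and IGF1R differed by 0.71, 0.95 and 1.03 without a call in either line alone. The count became 8 without Ctrl replicate 1 and 9 without Ctrl_Dox replicate 1. CCND1 (-0.51) was not called in 10 of the 18 alternatives tried (leaving out Ctrl replicate 1, Ctrl_Dox replicate 1, Ctrl_Dox replicate 2, sh225 replicate 1, sh225 replicate 2 or sh225_Dox replicate 1, with median centring, with no filter on detection, with only the arrays compared, with no trend in the variance, adjusted p from 0.0649 to 0.222). TFF1 (1.00) was not called in 8 of the 17 alternatives tried (leaving out Ctrl replicate 1, Ctrl replicate 2, Ctrl_Dox replicate 1, Ctrl_Dox replicate 2, sh225 replicate 1, sh225 replicate 2 or sh225_Dox replicate 1 and with no filter on detection, adjusted p from 0.0558 to 0.0897). BCL2 (0.97) was not called in 7 of the 17 alternatives tried (leaving out Ctrl replicate 1, Ctrl replicate 2, Ctrl_Dox replicate 1, sh225 replicate 2, sh225_Dox replicate 1 or sh225_Dox replicate 2 and with no filter on detection, adjusted p from 0.0562 to 0.186). INPP4B (0.70) was not called in 8 of the 18 alternatives tried (leaving out Ctrl replicate 1, Ctrl replicate 2, Ctrl_Dox replicate 1, Ctrl_Dox replicate 2, sh225 replicate 2 or sh225_Dox replicate 1, with no filter on detection, with only the arrays compared, adjusted p from 0.0598 to 0.17). IGF1R was not called in 5 of the 17 alternatives tried (leaving out Ctrl replicate 1, Ctrl_Dox replicate 2, sh225 replicate 1 or sh225_Dox replicate 2 and with no filter on detection, adjusted p from 0.0541 to 0.152). NRIP1 was not called when leaving out Ctrl replicate 1 (adjusted p = 0.0712) and when leaving out Ctrl_Dox replicate 1 (adjusted p = 0.0731).

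Against the sh120 line, the sh225 Dox effect differed for 10 members (4 higher, 6 lower), where 14% of items did (8.37% lower). ELF5 differed by -1.69 ± 0.14 (adjusted p = 5.21e-08, limma), TFF1 by 1.47 ± 0.30 (adjusted p = 0.00227) and ANXA9 by -1.14 ± 0.18 (adjusted p = 0.000144). STAT5A differed by 1.11 ± 0.28 (adjusted p = 0.00963), not called when leaving out sh120 replicate 1 (adjusted p = 0.0576) and when leaving out sh225_Dox replicate 1 (adjusted p = 0.0597). TFF3 and IRS1 were lower, with a change of -0.86 and -0.83, and ELF3 higher by 0.82. SLC39A6 (-0.78) was not called in 11 of the 18 alternatives tried (leaving out any 1 of the 8 arrays, with median centring, with the series matrix, with no filter on detection, adjusted p from 0.0504 to 0.157). FOXA1 (-0.41) was not called in 9 of the 18 alternatives tried (leaving out sh120 replicate 1, sh120 replicate 2, sh120_Dox replicate 2, sh225 replicate 1 or sh225_Dox replicate 1, with median centring, with no filter on detection, with only the arrays compared, with no trend in the variance, adjusted p from 0.0556 to 0.363). INPP4B (0.79) was not called in 5 of the 18 alternatives tried (leaving out sh120 replicate 2, sh120_Dox replicate 1, sh225 replicate 2 or sh225_Dox replicate 1 and with no filter on detection, adjusted p from 0.0645 to 0.109). The sh120 and Ctrl Dox effects differed for 0 members at the adjusted threshold in limma, where 0.425% of items were called (0.352% higher, 0.0725% lower). At an unadjusted p under 0.05 they differed for 7 of 39 members and for 1280 of 9654 items. These 3 tests share arrays, so their results are not independent.

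**Figure D4:**
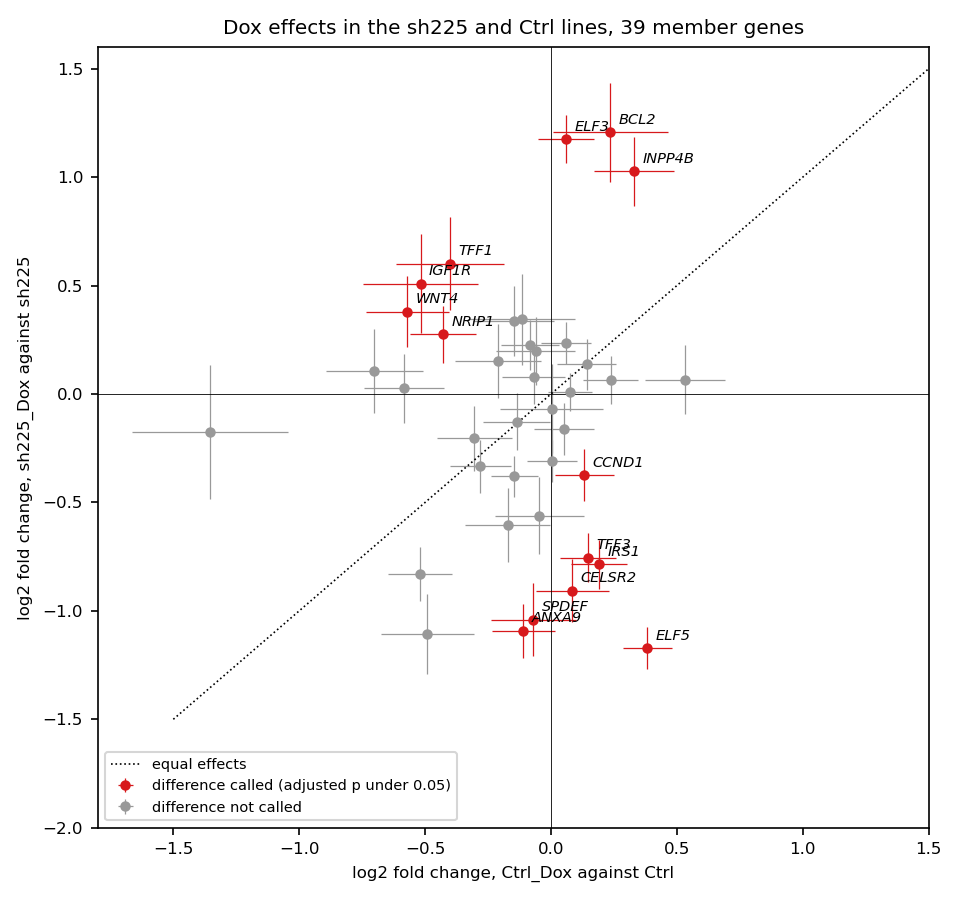
Log2 fold change with Dox in the sh225 line (vertical) against that in the Ctrl line (horizontal) for the 39 tested members, with standard errors as bars. Red points are the 14 members whose effects differed at adjusted p under 0.05, among them ELF5 at -1.17 and 0.38, and the dotted line marks equal effects.

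Setting the overexpression lines against the untreated sh225 line, which shares their run of array numbers, was a comparison chosen after seeing the data. It called 26 members in K26 (6 higher, 20 lower), where 54.9% of items were called (28.8% lower), and 27 in WT (11 higher, 16 lower), where 35.9% were. Of the 27 members called in K26 against Ctrl, 24 were called in the same direction. Those not called were IL6ST, WNT4 and FKBP5, and FKBP5 changed sign (0.18, adjusted p = 0.222 in limma). Of the 23 called in WT against Ctrl, 20 were called in the same direction, and IL6ST, PRLR and SPDEF were not, the last 2 with changes of -0.08 and -0.08. Both sets use the same K26 and WT arrays. For PGR the change was -1.63 ± 0.13 in K26 and -1.10 ± 0.13 in WT, for ESR1 -0.77 ± 0.16 and -0.58 ± 0.16, and for GREB1 -1.76 ± 0.16 and -1.63 ± 0.16 (adjusted p = 5.1e-08 and 3.09e-07). ERBB2 was higher by 0.80 ± 0.11 in K26 and 1.23 ± 0.11 in WT. Whether the untreated sh225 and Ctrl arrays had the serum-free step is not recorded, and its part in these differences was not tested.

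**Figure D5:**
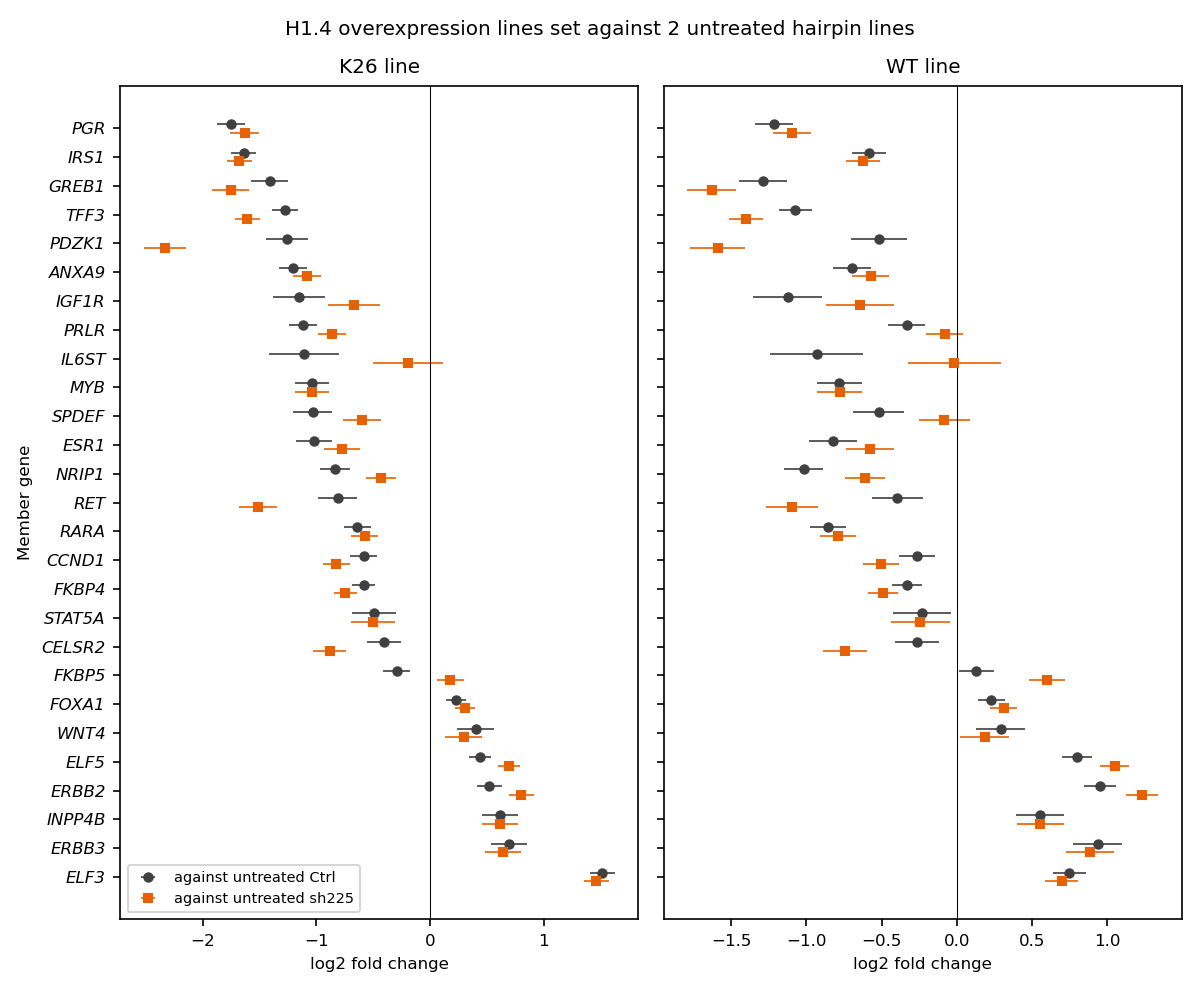
Log2 fold changes with standard errors of the 27 members called in K26 against Ctrl, for the K26 line (left) and the WT line (right), set against untreated Ctrl (circles) and untreated sh225 (squares). IL6ST, undetected in both overexpression lines, lies nearer to 0 against sh225 than against Ctrl, and FKBP5 lies on opposite sides of 0 in K26, while the other members keep their side in both panels.

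Genes of the same pathways outside the 43 are given by lists chosen for these cells. Their comparisons of WT and K26 with Ctrl cross the runs of array numbers, and none with sh225 is given. Of 24 tested further oestrogen response genes, 3 were higher and 12 lower in WT against Ctrl (median -0.33, beside -0.01 over all items). There 31.8% of all items were called (16.3% higher, 15.5% lower). In K26 against Ctrl 4 of the 24 were higher and 14 lower (median -0.66, beside -0.03), where 51.4% of items were called (24.2% higher, 27.2% lower). In WT, RERG, a Ras-like growth inhibitor, was lower, with a change of -1.69 ± 0.12 (adjusted p = 5.29e-09, limma) and ASB13, with a change of -1.20 ± 0.11 (adjusted p = 1.95e-07), while the chaperone HSPB8 was higher by 1.13 ± 0.15 (adjusted p = 1.93e-05). In K26 the chemokine CXCL12 was lower, with a change of -1.91 ± 0.12 (adjusted p = 2.87e-10) and FHL2, with a change of -1.86 ± 0.12 (adjusted p = 7.49e-10). The list split with Dox in the sh225 line, with 8 higher and 8 lower, or 5 higher and 8 lower without sh225 replicate 1. HSPB8 rose there by 1.36 ± 0.15 and the protease gene CTSD fell by 1.09 ± 0.11. Both moved the same way in Ctrl (1.04 ± 0.15 and -0.84 ± 0.11). Of all items, 35.6% were called with Dox in the sh225 line and 22.9% in K26 against WT (10.1% higher, 12.8% lower). In K26 against WT 2 of the list were higher and 9 lower, and the number lower became 5 without WT replicate 1 and 6 without K26 replicate 2.

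Of 11 tested glucocorticoid and progestin response genes outside the members, 10 were higher with Dox in the sh225 line (median 1.00, beside 0.03 over all items), and 7 to 9 were without 1 of its arrays. S100P, a calcium-binding protein, rose by 1.58 ± 0.10 (adjusted p = 9.69e-10, limma), the metallothionein MT2A by 1.39 ± 0.13 (adjusted p = 8.32e-08), the phosphatase DUSP1 by 1.13 ± 0.13 (adjusted p = 1.66e-06) and TIPARP by 1.06 ± 0.11 (adjusted p = 2.42e-07). In the Ctrl line 0 of the 11 were higher and 2 lower, S100P (-1.36 ± 0.10) and CEBPD (-1.19 ± 0.14). The sh120 line had 3 higher and 2 lower, or 1 higher and 2 lower without sh120_Dox replicate 2. The list held 17 genes, 15 of them on the array, and CDKN1C, PER1, SLC19A2 and ZBTB16 were undetected on every array. The members of the same kind did not pass the test in limma. TSC22D3 gave -0.07 ± 0.21 in the sh225 line (adjusted p = 0.829), FKBP5 gave 0.14 ± 0.12 (adjusted p = 0.398), and SGK1 was undetected. In K26 against Ctrl 7 of the 11 were higher and 2 lower, with DUSP1 at 2.07 ± 0.13 and MT2A at -1.55 ± 0.13. There 51.4% of all items were called (24.2% higher, 27.2% lower). With Dox 35.6% of all items were called in the sh225 line (17.1% higher), 16.5% in sh120 and 2.98% in Ctrl.

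Of 15 receptor coregulators and chaperones, 4 were higher and 3 lower with Dox in sh225 (35.6% of all items called), 2 higher and 1 lower in sh120 (16.5%), and none was called in Ctrl. These counts changed when 1 array was left out, which leaves 1 array in its group. In sh225 they became 1 higher and 0 lower without sh225 replicate 1 or sh225_Dox replicate 2, and 1 higher and 3 lower without sh225 replicate 2. In sh120 they became 1 higher and 0 lower without any 1 of the 4 arrays. In K26 against WT 3 were higher and 2 lower (22.9% of items called), but none was called without K26 replicate 2, 1 without WT replicate 1, 2 without WT replicate 2 and 3 without K26 replicate 1, all of these higher. Of 7 tested nuclear receptors outside the members, at most 3 were called in any of these comparisons, and ESR2, the second oestrogen receptor gene, was undetected. Of 13 luminal keratin and epithelial genes, 1 was higher and 2 lower with Dox in sh225 (35.6% of all items called). That became 0 higher and 2 lower without sh225 replicate 1 or sh225_Dox replicate 2, 1 and 0 without sh225 replicate 2, and 1 and 1 without sh225_Dox replicate 1. In WT against Ctrl 2 were higher and 2 lower, or 0 and 1 without WT replicate 1. In K26 against Ctrl 2 were higher and 5 lower, and the number higher became 0 without Ctrl replicate 2 or K26 replicate 2. Of all items, 31.8% were called in WT against Ctrl and 51.4% in K26 against Ctrl. The summed normalized intensity of the 13 genes was 33230 to 35280 in K26, 36480 to 39760 in WT and 40610 to 43350 in Ctrl. KRT19 and XBP1, the brightest of the 13, weigh most in this sum. The median change of the 13 against Ctrl was 0.21 in K26 and 0.10 in WT, so the typical gene of the list was not lower. KRT8 fell by 0.91 ± 0.13 in K26 (adjusted p = 9.81e-06, limma). The part of the lower sum in the members' results was not tested. Of 4 tested basal markers, 2 were higher and 1 lower with Dox in sh225 (35.6% of all items called), namely CDH3, EGFR and ACTA2 by size of change. The lower call was lost without some single arrays. In the sh225 Dox effect minus that of Ctrl the 1 basal gene called was EGFR, and it was lower. ACTA2 was higher with Dox in all 3 hairpin lines (0.49 in sh225, 0.55 in sh120, 0.62 in Ctrl). It was not called in sh120 without sh120 replicate 1 (adjusted p = 0.0676) or in Ctrl without Ctrl replicate 1 (adjusted p = 0.0786). The summed signal of the 9 basal genes on the array was 1734 to 1754 in sh225_Dox against 1255 to 1273 in sh225, and 1396 to 1444 in Ctrl_Dox against 997.7 to 1041 in Ctrl. COL1A1, the 1 fibroblast gene detected, was lower than in Ctrl, with a change of -0.35 in K26 and -0.49 in WT. In K26 it was not called when leaving out Ctrl replicate 1 (adjusted p = 0.171), K26 replicate 1 (adjusted p = 0.122) or K26 replicate 2 (adjusted p = 0.0692), and in WT when leaving out Ctrl replicate 1 (adjusted p = 0.0664) or WT replicate 1 (adjusted p = 0.0987). The leukocyte gene CD14 was at least 3.27-fold higher in K26 than in Ctrl. CD68, detected on all 16 arrays, was not called there, and PTPRC, CD3E and ITGAM were undetected on all arrays.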

How the data were processed

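The deposited table held raw intensities and detection p-values per probe from the authors, for 16 Illumina bead arrays (2 in each of 8 groups), not scaled between arrays. GenomeStudio 1.6.0 is named in the submitters' processing notes. The authors' series matrix held normalized intensities, by a method not given in the sources used here, and served as an alternative. Arrays were normalized here with limma 3.58.1 in R 4.3.3 (neqc: normexp with the negative controls inferred from the deposited detection p-values, offset 16, quantile, log2). Probes with a detection p under 0.01 on at least 2 arrays were kept (11258 of 24530). The brightest probe stood for each gene, and unnamed probes stayed separate, which gave 9654 items. A group-means model over all 16 arrays with a variance trend (8 residual degrees of freedom) tested 11 contrasts, adjusted by Benjamini-Hochberg over all items. The median standard error of a 2-group difference was 0.152 (log2), and the number of arrays limits the precision. Bounds replaced folds where a group was undetected on every array: the bright group's mean was set against, per array of the other group, whichever was higher of the dimmest detected signal there and that probe's value. The fit was tested on simulated data. Values per array are given for members called at an absolute log2 fold change of at least 0.5 (at most 15 a contrast) and for ESR1, PGR, FOXA1 and GATA3. Members, lists and motifs were chosen with earlier results of these data known. Alternatives covered the background correction, offset, normalization, filter, variance trend, probes, arrays, replicate block and each array left out.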

Additional observations from a re-analysis of the deposited data

Results flagged for a closer look

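The Dox effect differed between lines for 24 pairs of a member and a comparison, each by limma's test of the difference itself with Benjamini-Hochberg adjustment (2 arrays per group). Differences are on the log2 scale, and the comparisons share the sh225 arrays. Against the Ctrl line, the sh225 effect was lower for ELF5 (-1.56), CELSR2 (-0.99), ANXA9 (-0.98), IRS1 (-0.98), SPDEF (-0.97), TFF3 (-0.90) and CCND1 (-0.51). It was higher for ELF3 (1.12), IGF1R (1.03), TFF1 (1.00), BCL2 (0.97), WNT4 (0.95), NRIP1 (0.71) and INPP4B (0.70). Against the sh120 line, the sh225 effect was lower for ELF5 (-1.69), ANXA9 (-1.14), TFF3 (-0.86), IRS1 (-0.83), SLC39A6 (-0.78) and FOXA1 (-0.41). It was higher for TFF1 (1.47), STAT5A (1.11), ELF3 (0.82) and INPP4B (0.79). Of 18 alternatives tried, the difference from the sh120 line was not called in 11 for SLC39A6, 9 for FOXA1 and 5 for INPP4B. TFF1, BCL2, IGF1R and STAT5A were undetected in some of these groups, so their fitted differences are no bounds. BCL2 and IGF1R passed the detection filter only through groups where they were high.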

How the results depend on the processing

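Of 119 calls of a member in a comparison, 68 held under every alternative in which the member was tested. Over 1788 recomputed values, 1546 kept direction and side of the threshold, 241 kept direction only, and 1 reversed: FKBP5 in K26, at 0.18 with sh225 in place of Ctrl, an alternative chosen after seeing the data. Without 1 array, members called ranged from 14 to 18 (sh225 with Dox), 4 to 7 (sh120 with Dox), 0 to 1 (Ctrl with Dox), 7 to 9 (K26 against WT), 16 to 19 (WT against Ctrl) and 23 to 25 (K26 against Ctrl). For differences of Dox effects they ranged from 8 to 15 (sh225 minus Ctrl), 7 to 11 (sh225 minus sh120) and 0 to 0 (sh120 minus Ctrl), and for untreated lines against Ctrl from 0 to 2 (sh225) and 0 to 1 (sh120). Items called ranged, in the same order, from 2273 to 3300, 654 to 826, 133 to 314, 999 to 1520, 1841 to 2495, 4026 to 4221, 1102 to 1676, 953 to 1296, 4 to 26, 0 to 149 and 0 to 66. For sh120 minus Ctrl, items called were 20 with median centring, 65 with the series matrix, 24 with no filter and 17 with probes detected on all arrays, and members 1 with the series matrix and 1 with only the arrays compared. For untreated sh225 against Ctrl, items were 176, 81, 25 and 5 in the same order of the first 4 alternatives, and members 3, 2, 0 and 0. For untreated sh120 against Ctrl, items were 0 with no filter and 0 with probes detected on all arrays, and members 1 with only the arrays compared. With no filter, members called were 1 for Ctrl with Dox and 9 for sh225 minus Ctrl, and with no variance trend 1 for Ctrl with Dox. The causes were not tested. Median centring shifted the median of all items by 0.14 in WT and 0.12 in K26 against Ctrl. Same-numbered arrays correlated at -0.25 to 0.30 in their deviations from group means, so the numbers were not taken to pair arrays. With the replicate block, items called were 71 for untreated sh225 and 4 for untreated sh120 against Ctrl, and members 1 for the last. The limits are 2 arrays a group, 1 line per construct, and dim members near background.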
